A study of Mus musculus with 6 samples.

Results

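The 10 genes described here encode cyclic nucleotide phosphodiesterases, and they were taken by name from the count tables of the 6 mice (10 of 32286 genes listed, each present in every table). They are *Pde1a*, *Pde1c*, *Pde4a*, *Pde4b*, *Pde4d*, *Pde5a*, *Pde7b*, *Pde8b*, *Pde9a* and *Pde10a*. Their counts were summed per mouse and per cell type label, so that a value below is the level of a gene in one kind of nucleus of one animal. Single nuclei were isolated from whole cerebella of 3 *Pcp2-ATXN1[82Q]* mice (SCA1 mice) and 3 wild-type littermates (WT mice) on the C57BL/6 background, all 12 weeks old, with 1 library per mouse. The SCA1 mice carry a human *ATXN1* transgene with an expanded CAG repeat. Its *Pcp2* promoter drives it in Purkinje cells (PCs), and the repeat in the colony had become shorter on average than the name of the line says.

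Phosphodiesterases are the enzymes that break down cAMP and cGMP, the second messengers made by adenylyl and guanylyl cyclases, and so set how long and how far these signals last inside a cell. Families 4, 7 and 8 act on cAMP, families 5 and 9 act on cGMP, and families 1 and 10 act on both, family 1 after activation by calcium and calmodulin. In the cerebellum, PCs are known for a strong cGMP pathway that runs through cGMP-dependent protein kinase and takes part in long-term depression of their synapses.

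The 6 libraries held 45473 nuclei and between 18916647 and 98366627 UMIs (unique molecular identifiers, 1 for each captured transcript). The authors named nuclei with SingleR, an annotation by reference profiles, and 13 of its 24 labels had at least 10 nuclei in every mouse. The study itself assigned a cell type where the SingleR label and the cluster went together, whereas the label alone is used here, so the cell types differ from those of the study. Of the 292 PC nuclei, 273 also carried the main label of their cluster. In some labels far fewer did, with 115 of 240 in *Lgi2*, 38 of 263 in *Pvalb-Chrm2* (all in SCA1 mouse 1) and 0 of 458 in *Pvalb-Rab3b*. These 13 labels hold 45042 nuclei and are used below, the PC label with 292 nuclei (29 to 76 per mouse) and the granule neuron label with 37532. The libraries of SCA1 mouse 1 and WT mouse 1 carry lower library numbers than the other 4, and their shallowest nuclei held 3890 and 3932 UMIs against 1000 to 1739 in the others, so this library number range was a term of each comparison between genotypes. WT mouse 2 was the shallowest library, with a median of 2246.5 UMIs per nucleus. Pairs of libraries shared 7 to 44 cell barcodes. As a check of the labels, UMIs assigned to human *ATXN1* were at 4.74, 13.9 and 10.9 counts per 1000000 UMIs (CPM) in PC nuclei of SCA1 mice 1, 2 and 3 and at 0 in those of the 3 WT mice, while over all nuclei 15 to 37 such UMIs were also found in each WT mouse, against 57 to 60 in each SCA1 mouse. These counts over all nuclei are not scaled for the unequal depth of the libraries. In granule neurons the genotypes overlapped, at 0.54, 1.23 and 0.99 CPM in SCA1 mice 1, 2 and 3. The WT mice 1, 2 and 3 were at 0.39, 1.12 and 0.69 CPM there.

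Labels were checked against marker genes. Bergmann glia (BG), velate astrocytes (VA), oligodendrocytes (OL), PCs and granule neurons carry the names used by the authors. The other labels are called by their reference genes: *Lgi2*, *Pvalb-Cadm1*, *Pvalb-Chrm2*, *Pvalb-Nefh* and *Pvalb-Rab3b* among the *Gad1/Gad2* neurons, and *Slc17a6-Nrgn* and *Slc17a6-Sln* among the *Slc17a6* neurons. The label that its reference calls an endothelial tip cell is called *Dcn-Nnat* here, since its nuclei went against that name. In it, the endothelial genes *Cldn5* and *Pecam1* were at 1.88 ± 2.58 and 2.25 ± 2.15 CPM (mean ± SD, n = 6 mice) and *Flt1* and *Slco1a4* at 94.9 ± 26.0 and 70.9 ± 34.0 CPM, while the fibroblast genes *Dcn* and *Col1a2* were at 374 ± 153 and 347 ± 74.6 CPM.

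The 10 genes divided the cerebellar cell types among them. Among the 13 labels compared, *Pde4b* led in OL, *Pde1c* and *Pde10a* in granule neurons, and *Pde5a* and *Pde9a* in PCs. *Pde7b* and *Pde8b* led in BG, *Pde1a* in the *Dcn-Nnat* label and *Pde4d* in the *Slc17a6-Sln* label. For these 9 genes the leading label was the same in each of the 6 mice taken alone. *Pde4a* was the exception, with its highest level in *Pvalb-Chrm2* nuclei in 4 mice and elsewhere in SCA1 mouse 2 and WT mouse 1. Neighbours in the order of levels were compared within mice with a two-sided exact permutation test that flips the signs of the 6 differences. Of 120 neighbouring pairs, 30 reached its smallest possible p, 0.03125, which is 0.125 after Benjamini-Hochberg adjustment over the 120 pairs, so no step in these orders passed the adjusted threshold of 0.05. The number of mice that show each step is therefore given instead. The order itself came from the means of these same 6 mice, so both the test and these numbers lean towards it.

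**Figure D1:**
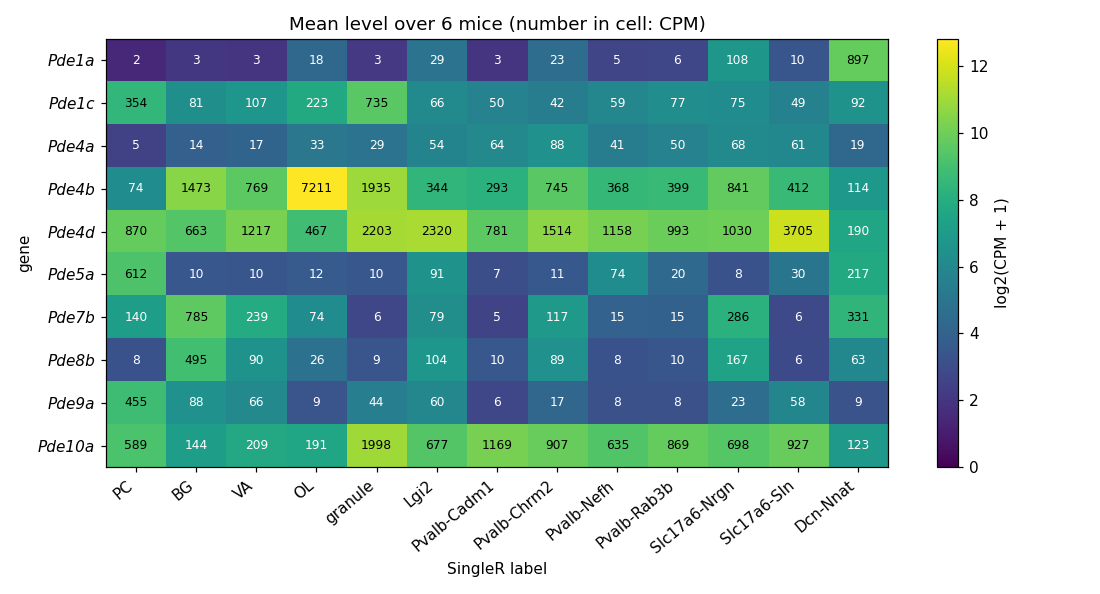
Mean level of the 10 genes (rows) in the 13 labels (columns) over 6 mice; colour is log2(CPM + 1) and the number in each cell is CPM. *Pde4b* in OL (7211 CPM) is the highest value, *Pde5a* and *Pde9a* stand out in the PC column, and *Pde4a* stays at or below 88.2 CPM.

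Among the labels compared, the cGMP-specific genes were those of PCs. *Pde5a* (chr3:122728947-122859374, plus strand, mm10), which encodes the enzyme blocked by sildenafil, was at 490, 523 and 727 CPM in the PC nuclei of SCA1 mice 1, 2 and 3 and at 523, 581 and 827 CPM in those of WT mice 1, 2 and 3. All 6 PC values lie above every value of any other label compared. Of these, the *Dcn-Nnat* label came next at 217 ± 58.3 CPM, lower than PCs in all 6 mice. *Lgi2* (90.9 ± 26.0 CPM) and *Pvalb-Nefh* nuclei (73.7 ± 7.91 CPM) followed, and in the remaining labels compared *Pde5a* was at or below 30.3 CPM. Labels with too few nuclei to compare were pooled over mice. Among them, *Pde5a* was at 341 CPM in *Kcnj8* mural (20 nuclei) and 312 CPM in *Acta2* mural nuclei (5 nuclei). Both lie above the *Dcn-Nnat* mean, and the rest of the pooled labels were at or below 121 CPM. A gene annotated on the opposite strand within *Pde5a*, *4930447N08Rik*, also had its highest level in PCs (215 CPM), and how reads at this place were divided between the pair was not examined here. *Pde9a* (chr17:31386210-31476310, plus strand), whose enzyme has a very high affinity for cGMP, averaged 455 ± 176 CPM in PCs. Of the labels compared, BG (87.7 ± 19.4 CPM), VA (65.6 ± 11.6 CPM) and *Lgi2* nuclei (60.3 ± 14.6 CPM) followed, with PCs above BG, and BG above VA, in all 6 mice. Among the pooled labels, *Pde9a* was at 253 CPM in polydendrocytes (12 nuclei), above the BG mean. A label of 1 nucleus held 1 UMI of *Pde9a*, and the rest of the pooled labels were at or below 42.3 CPM.

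The cAMP-specific genes were spread over glia and neurons. *Pde4b* (chr4:102087543-102607259, plus strand) was by far highest in OL, the myelin-forming cells, at 6266, 6094 and 9068 CPM in the SCA1 mice and 5429, 7120 and 9286 CPM in the WT mice. The genotypes overlapped, and the mice numbered 3 were highest in both. Of the labels compared, granule neurons (1935 ± 407 CPM) and BG (1473 ± 335 CPM) came next, each step being seen in all 6 mice, and PCs were last with 74.0 ± 55.3 CPM. Pooled over mice, *Pde4b* was also above the granule mean in *Klk6* oligodendrocytes (5148 CPM, 13 nuclei) and polydendrocytes (2848 CPM, 12 nuclei). Both labels were too small to compare, and in the rest of the pooled labels *Pde4b* was at or below 559 CPM. Its relative *Pde4d* (chr13:108449948-109953461, plus strand), the longest of the 10 genes with a span of 1504 kb, was highest in *Slc17a6-Sln* nuclei at 3705 ± 654 CPM. *Lgi2* nuclei (2320 ± 288 CPM) and granule neurons (2203 ± 509 CPM) did not separate, *Lgi2* being higher in 3 of 6 mice (exact sign-flip permutation p = 0.5). In 12 of the 13 labels *Pde4d* was at or above 467 CPM, and in *Dcn-Nnat* nuclei it was at 190 ± 36.7 CPM. *Pde4a* (chr9:21165714-21213248, plus strand) reached 88.2 ± 16.8 CPM in *Pvalb-Chrm2* nuclei and was lowest in PCs, at 4.82 ± 4.05 CPM from 63 UMIs in all.

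*Pde7b* and *Pde8b* shared BG as their leading label. *Pde7b* (chr10:20398004-20725078, minus strand) was at 561, 638 and 994 CPM in BG of the SCA1 mice and 494, 829 and 1193 CPM in BG of the WT mice. The *Dcn-Nnat* label (331 ± 194 CPM) and *Slc17a6-Nrgn* neurons (286 ± 38.6 CPM) followed without a clear order between them, *Dcn-Nnat* being higher in 3 of 6 mice, and VA were at 239 ± 65.4 CPM. In granule neurons it was at 5.63 ± 2.32 CPM. *Pde8b* (chr13:95024454-95250336, minus strand) was at 291, 444 and 665 CPM in BG of the SCA1 mice and at 255, 604 and 714 CPM in those of the WT mice, then at 167 ± 32.3 CPM in *Slc17a6-Nrgn* neurons, 104 ± 26.0 CPM in *Lgi2* nuclei and 90.5 ± 26.8 CPM in VA. VA held *Pde7b* at 30.5% and *Pde8b* at 18.3% of the BG level. The BG markers summed to 5615 CPM in BG and 1229 CPM in VA (means over 6 mice). The part of BG transcripts in the VA levels was not tested. For both genes, the mice numbered 1 had the lowest and those numbered 3 the highest BG level in each genotype. Across the 13 labels, log2 levels of these 2 genes had a Pearson r of 0.84, the highest of any pair among the 10, as a description over labels that come from the same 6 libraries.

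The dual-specificity genes were mostly neuronal. *Pde10a* (chr17:8525372-8986648, plus strand), best known for its abundance in neurons of the striatum, was at 1297, 1597 and 2785 CPM in granule neurons of the SCA1 mice and 1031, 2278 and 3000 CPM in those of the WT mice. Every neuronal label held it, from 1169 ± 683 CPM in *Pvalb-Cadm1* nuclei down to 589 ± 317 CPM in PCs (759 ± 353 CPM in the WT and 420 ± 199 CPM in the SCA1 mice, n = 3), and the order of *Pvalb-Cadm1*, *Slc17a6-Sln*, *Pvalb-Chrm2* and *Pvalb-Rab3b* was not resolved (each higher than the next in 2 to 5 of 6 mice). *Pde1c* (chr6:56069804-56569103, minus strand), a calmodulin-activated enzyme, was at 583, 749 and 1204 CPM in granule neurons of the SCA1 mice and 421, 624 and 830 CPM in those of the WT mice. PCs (354 ± 158 CPM) and OL (223 ± 27.5 CPM) followed, PCs being above OL in 5 of 6 mice. In the WT mice the pair were level, at 224 ± 74.6 and 221 ± 25.2 CPM, and in the SCA1 mice they were at 485 ± 74.6 and 224 ± 35.5 CPM (n = 3). *Pde1a* (chr2:79834453-80129458, minus strand) had another distribution and was at 897 ± 210 CPM in *Dcn-Nnat* nuclei, 108 ± 10.6 CPM in *Slc17a6-Nrgn* neurons and at or below 28.7 CPM in the other 11 labels. It was not confined to *Dcn-Nnat* when labels with too few nuclei to compare were pooled over mice. There it was at 738 CPM in *Dcn-Apod* (36 nuclei), 681 CPM in *Acta2* mural (5 nuclei) and 440 CPM in *Kcnj8* mural nuclei (20 nuclei). In the rest of those labels it was at or below 82.4 CPM.

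Levels of different genes can be compared only per length. Because reads on introns were counted, CPM was divided by the annotated gene span in kb, which takes every intron as equally captured. On this scale the 10 genes together summed to between 4.58 CPM per kb in *Pvalb-Nefh* and 16.3 CPM per kb in OL. In OL, *Pde4b* made up 84.9% of that sum. In PCs, *Pde9a* (38.8%) and *Pde5a* (36.0%) together took most of it, *Pde10a* 9.81% and *Pde4b* 1.09%. The order of the leading pair differed between the genotypes, with *Pde9a* at 44.5% and *Pde5a* at 33.1% of the sum in WT mice and at 31.2% and 39.9% in SCA1 mice. Granule neurons divided it between *Pde10a* (35.4%), *Pde4b* (30.4%), *Pde1c* (12.0%) and *Pde4d* (12.0%). BG held *Pde4b* (29.2%), *Pde7b* (24.7%), *Pde8b* (22.6%) and *Pde9a* (10.0%). *Pde4a*, whose span is 47.5 kb, made up 24.9% of the sum in *Pvalb-Chrm2* nuclei, close to *Pde10a* with 26.4%.

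**Figure D2:**
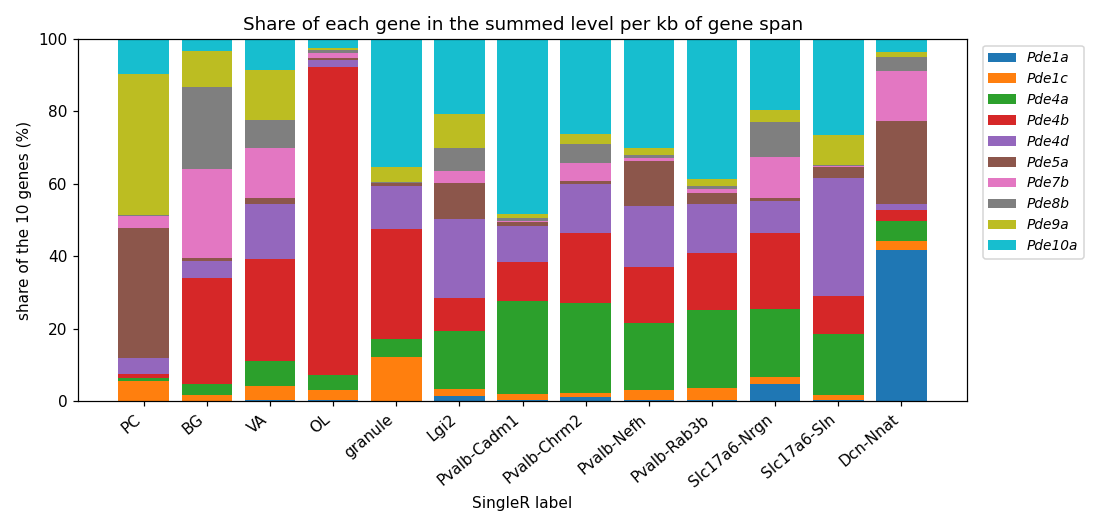
Share (%) of each of the 10 genes in their summed level per kb of gene span, for the 13 labels, from means over 6 mice. *Pde5a* and *Pde9a* fill most of the PC bar, *Pde4b* fills 84.9% of the OL bar, and *Pde1a* leads in *Dcn-Nnat* with 41.8%.

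Granule neurons make up most nuclei of each library, and their transcripts were found in every other label, so a low level of a granule-rich gene elsewhere cannot be read as expression by itself. *Gabra6*, a receptor subunit that marks granule neurons, was at 4.35% of its granule level in PCs and at 6.10% to 18.4% of it in the other 11 labels. The other granule markers ranged more widely, so that the highest of the 5 was at 11.3% in PCs and 45.7% in OL. *Pde1c* stood above all 5 in PCs (48.2% of its granule level), and in OL (30.3%) above *Gabra6* but not above the highest. In BG, VA and the *Pvalb* labels it was at 5.67% to 14.6%, below *Gabra6* in each, and in *Slc17a6-Sln*, *Lgi2*, *Slc17a6-Nrgn* and *Dcn-Nnat* it was at 6.71%, 8.99%, 10.2% and 12.5%, against 6.90%, 7.31%, 6.10% and 12.1% for *Gabra6*. *Pde10a* stood at 29.5% to 58.5% of its granule level in the neuronal labels, above all 5 markers except in *Slc17a6-Sln*, but at 6.14% to 10.5% in BG, VA, OL and *Dcn-Nnat*, below *Gabra6* in all 4. *Pde4b* in PCs was at 3.82% of its granule level, also below *Gabra6*. *Pde4d* in *Dcn-Nnat* nuclei, at 8.64%, and *Pde4b* there, at 5.88%, were below it as well. Values below the share of *Gabra6* are not taken as expression of these 4 genes in those cell types. Outside *Slc17a6-Sln*, some values of *Pde1c*, *Pde4b* and *Pde4d* lay above *Gabra6* but not above the highest marker. For *Pde1c* this held in OL (30.3%, highest marker 45.7%), *Lgi2* (8.99%, 17.4%), *Slc17a6-Nrgn* (10.2%, 29.7%) and *Dcn-Nnat* (12.5%, 36.5%). For *Pde4d* this held in BG (30.1%, highest marker 38.3%) and OL (21.2%, 45.7%). For *Pde4b* it held in VA (39.8%, 46.9%), *Pvalb-Cadm1* (15.1%, 28.1%), *Pvalb-Nefh* (19.0%, 29.9%) and *Pvalb-Rab3b* (20.6%, 35.6%). These values are not separated from granule transcripts here.

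Transcripts of PCs were likewise found elsewhere, and the 6 PC markers spread widely, from 2.15% to 30.3% of their PC level in BG and from 4.20% to 34.1% in VA. *Pde9a* was at 19.3% of its PC level in BG and at 14.4% in VA, within the range of the markers in both, so its level in these glia is not separated from PC transcripts here. In *Lgi2* nuclei it was at 13.3%, above the highest marker (12.0%). *Pde5a* stood above the highest marker in *Dcn-Nnat* (35.4% against 30.9%) and in *Lgi2* (14.9% against 12.0%), but within the range of the markers in *Pvalb-Nefh* (12.0%, range 3.08% to 23.0%). In OL and granule neurons *Pde5a* was at 1.93% and 1.68%, below the lowest marker (2.27% and 2.54%).

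**Figure D3:**
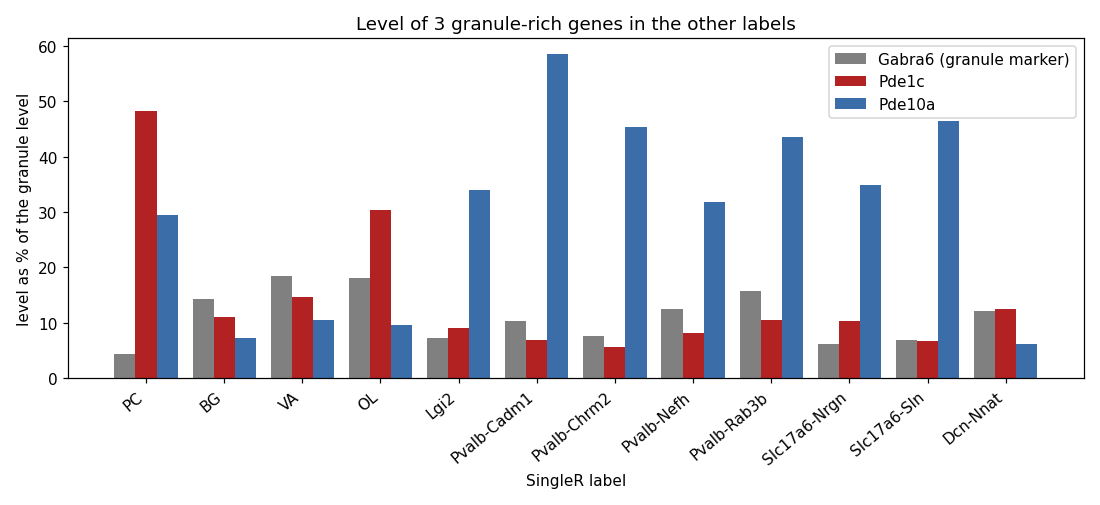
Level of *Gabra6*, *Pde1c* and *Pde10a* in 12 labels as a percentage of the level in granule neurons (means over 6 mice). *Pde1c* is at 48.2% in PCs and 30.3% in OL, against 4.35% and 18.1% for *Gabra6*. The highest of the 5 granule markers, not drawn, is at 11.3% in PCs and 45.7% in OL. *Pde10a* exceeds *Gabra6* in every neuronal label but not in glia or *Dcn-Nnat*.

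The study compared nuclei of SCA1 mice with those of WT mice to ask how glia of the cerebellum respond when PCs are dysfunctional, and it compared PCs as well. From its test on single nuclei it reported lower expression in PCs of a gene it names phosphodiesterase 10 (*Pde10*). In BG it reported higher expression of the adenylyl cyclase gene *Adcy8*. For the 10 genes, the differences with the lowest p-values were found in PCs. There, *Pde9a* and *Pde10a* were 2.15 and 2.01 times lower and *Pde1c* was 1.90 times higher in the SCA1 mice, and none of these 3 differences passed the adjusted threshold in edgeR's quasi-likelihood test on sums per mouse. In all, 113 of 130 combinations of gene and label passed the filter on low counts. Of these 113, 0 were called at an adjusted p of 0.05 or less and 12 had an unadjusted p under 0.05. Over all genes of the 13 labels, 0.00146% of the genes tested were called and 1.99% had an unadjusted p under 0.05. The SCA1 mice were all above the WT mice for 2 of the 113 combinations and all below them for 2, against 2.59% and 2.64% over all genes. With 3 mice per genotype, fewer nuclei of a kind carrying a transcript and less of it per nucleus were not separated, since sums were compared.

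**Figure D4:**
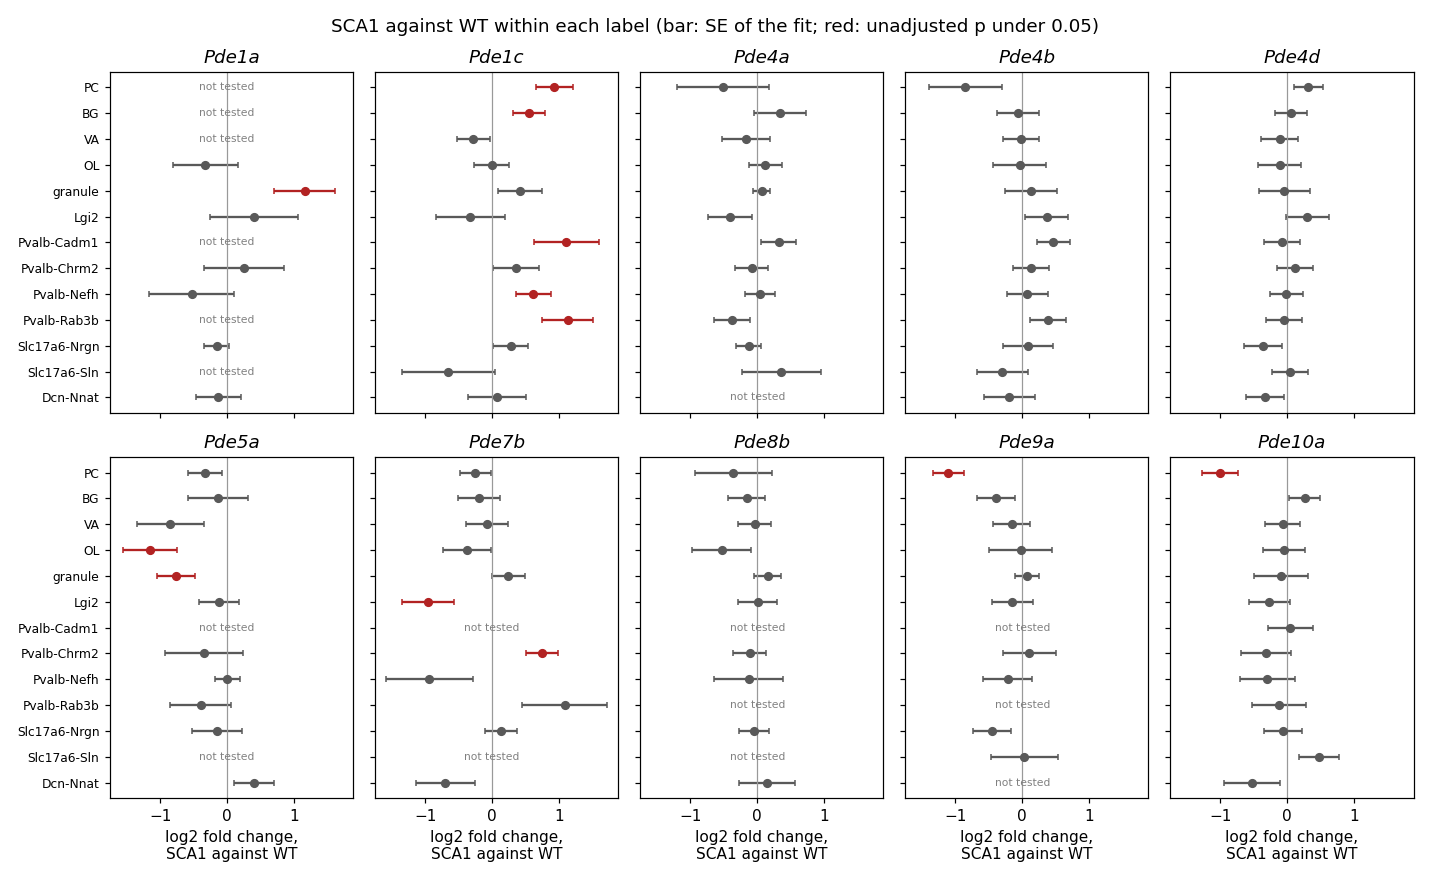
log2 fold change of SCA1 against WT for each gene (panels) in each label (rows), with an SE derived from edgeR's F statistic. Red marks an unadjusted p under 0.05, and combinations that failed the filter on low counts are marked as not tested. *Pde9a* and *Pde10a* are red in PCs alone, while *Pde1c* lies to the right in 9 labels and is red in PCs, BG and 3 *Pvalb* labels; no adjusted p is at or below 0.05.

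In PCs, 9 of the 10 genes were tested and 0 called (background 0% of 10517 genes tested), 3 had an unadjusted p under 0.05 (background 6.85%), 1 had all SCA1 mice above the WT mice (background 5.08%) and 1 had all below (background 5.04%). *Pde9a* was at 235, 263 and 407 CPM (scaled by TMM factors, as are all levels compared between genotypes from here on unless another scale is named) in SCA1 mice 1, 2 and 3 and at 485, 641 and 833 CPM in WT mice 1, 2 and 3. The groups did not overlap. The means were 302 ± 92.1 and 653 ± 174 CPM (SD, n = 3), the log2 fold change was -1.10 (SE 0.24) and the adjusted p was 0.159 (edgeR). Within the library number ranges the log2 difference was -1.04 in the first and -1.16 in the second.

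*Pde10a* was at 208, 369 and 653 CPM in PCs of SCA1 mice 1, 2 and 3 and at 383, 870 and 1277 CPM in those of WT mice 1, 2 and 3. The groups overlapped, and in each number the SCA1 mouse was lower than the WT mouse. The log2 fold change was -1.01 (SE 0.27, adjusted p = 0.288 in edgeR), and within the library number ranges it was -0.88 and -1.10. *Pde1c* went the other way, with 397, 408 and 591 CPM in the SCA1 mice against 203, 175 and 358 CPM in the WT mice, which did not overlap. In edgeR's fit *Pde1c* stood at 0.93 ± 0.28 on the log2 scale (SE), the adjusted p being 0.367, with 0.97 within each range. For the 3 genes, direction was the same in every mouse number and under each scaling tried.

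Mouse number was also tried as a pairing of the PC samples, although the labels state no pairing. Deviations from the genotype means correlated at 0.76, 0.14 and 0.62 in the 3 same-numbered pairs, and at -0.70 to 0.05 between mice of unlike number. The mice numbered 1 are also the only libraries of the lower number range. Deviations within a genotype cancel out for each gene, so the pairs are not independent. These correlations therefore cannot tell a pairing from the library number range. The rule for taking this as a pairing, a correlation above 0.1 in all 3, was applied to these same data. When mouse number replaced the library range as the block, all 3 genes were called in PCs, *Pde9a* at a log2 fold change of -1.12 (adjusted p = 0.00423), *Pde10a* at -1.03 (adjusted p = 0.00513) and *Pde1c* at 0.96 (adjusted p = 0.00829, edgeR), where 1.75% of all genes tested were called. DESeq2 called *Pde9a* and *Pde10a* (0.618% of all genes). With low genes kept in the fit, edgeR called all 3 (1.04% of all genes), and so did limma-trend on single nuclei, the test of the study, which takes nuclei as replicates (1.9% of all genes). Over all alternatives, the log2 fold change lay between -1.28 and -0.92 for *Pde9a*, between -1.25 and -0.79 for *Pde10a* and between 0.69 and 1.27 for *Pde1c*.

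The remaining genes of PCs differed less. *Pde5a*, the other cGMP-specific gene, was at 433, 490 and 753 CPM in the SCA1 mice and 516, 633 and 968 CPM in the WT mice, with a log2 fold change of -0.33 (SE 0.25). The groups overlap, and the SCA1 mouse was lower in each number. *Pde4d* was at 829, 970 and 1127 CPM against 671, 733 and 946 CPM, with a log2 fold change of 0.32 (SE 0.22). Its groups overlapped on this scale but not when CPM was taken over all UMIs. Without TMM factors the median log2 fold change over all genes of PCs moved from 0.02 to 0.20, and that of *Pde4d* to 0.50. *Pde7b* had a log2 fold change of -0.25 (SE 0.24). *Pde4a* and *Pde8b*, with 63 and 84 UMIs, had SEs of 0.69 and 0.57. *Pde4b* was at 103, 46.9 and 17.8 CPM in SCA1 mice 1, 2 and 3 and at 145, 14.4 and 117 CPM in WT mice 1, 2 and 3 (log2 fold change -0.85, SE 0.54, and 0.12 without WT mouse 3). The granule marker sums of the same nuclei were 185, 129 and 32.6 CPM and 311, 47.3 and 201 CPM, high and low in the same mice, and their part in the values of *Pde4b* was not tested. *Pde1a* had 32 UMIs over all PC nuclei, 30 of them in WT mouse 1, and failed the filter.

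**Figure D5:**
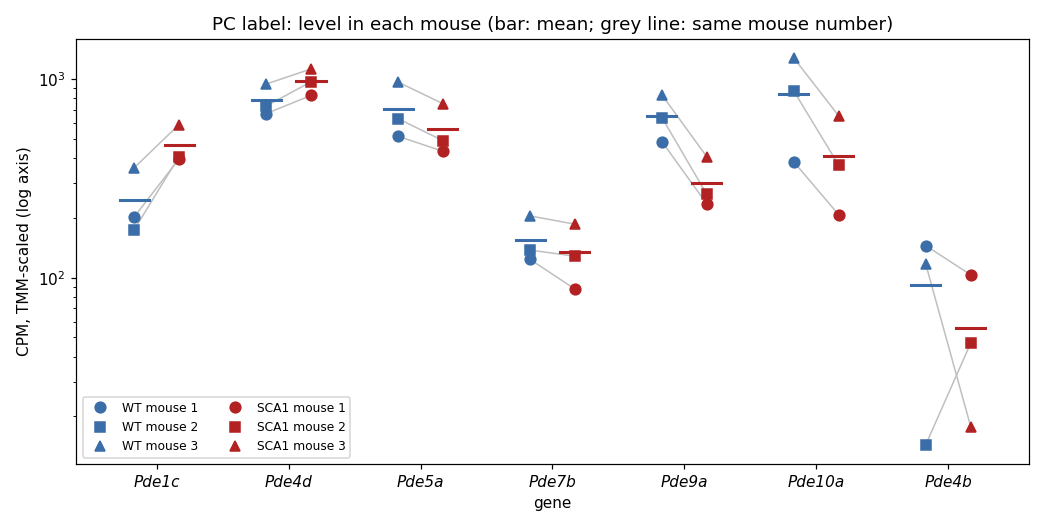
Level in PCs (CPM scaled by TMM factors, log axis) of 7 of the genes in each mouse, WT in blue and SCA1 in red; bars are means over 3 mice and grey lines join mice of the same number. The lines of *Pde5a*, *Pde9a* and *Pde10a* all fall from WT to SCA1 and those of *Pde1c* and *Pde4d* all rise, while those of *Pde4b* cross.

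Marker sums in PC nuclei are given beside these differences. The 6 PC markers summed to 10658 to 15256 CPM in PC nuclei of the SCA1 mice and to 15490 to 22630 CPM in those of the WT mice, without overlap, so that PC markers moved in the direction of *Pde9a* and *Pde10a*. The 5 granule markers summed to 32.6 to 185 CPM in the SCA1 mice and to 47.3 to 311 CPM in the WT mice, all 5 being detected. Granule neurons hold more *Pde1c* than PCs, and the granule marker sums of the genotypes overlapped in PC nuclei. The choroid plexus list summed to 145 CPM in SCA1 mouse 1 and to 3.05 to 31.5 CPM in the other 5 mice. The part of these markers in the differences of *Pde9a*, *Pde10a* and *Pde1c* was not tested.

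Outside PCs, *Pde1c* had a positive log2 fold change in 8 of the other 12 labels and an unadjusted p under 0.05 in 4 of them. In BG it was at 92.2, 93.4 and 105 CPM in the SCA1 mice and 83.8, 60.5 and 53.9 CPM in the WT mice, which did not overlap (log2 fold change 0.54, SE 0.24). The difference was 0.13 within the first library range and 0.78 within the second, and over the alternatives it ran from 0.06 to 0.80. In *Pvalb-Rab3b* nuclei it was at 107 ± 21.8 against 49.9 ± 40.8 CPM (log2 fold change 1.13, SE 0.38, with 0.20 and 2.00 within the ranges and 0.72 to 1.98 over the alternatives), in *Pvalb-Cadm1* at 70.2 ± 49.1 against 33.5 ± 26.1 CPM (1.11, SE 0.49, with 1.03 and 1.30, and 0.63 to 1.56) and in *Pvalb-Nefh* at 68.6 ± 25.9 against 48.7 ± 40.0 CPM (0.61, SE 0.26, with 0.04 and 1.04, and 0.40 to 1.08). All 4 labels held *Pde1c* below the share set by *Gabra6*, and in granule neurons themselves *Pde1c* was at 539, 702 and 1340 CPM in the SCA1 mice against 392, 608 and 949 CPM in the WT mice (0.41, SE 0.33). The granule markers summed to 640, 309 and 241 CPM in BG of the SCA1 mice and to 758, 314 and 154 CPM in BG of the WT mice. In *Pvalb-Rab3b* they summed to 740, 354 and 334 against 847, 319 and 195 CPM. The sums were 754, 200 and 286 against 609, 256 and 97.0 CPM in *Pvalb-Cadm1*. In *Pvalb-Nefh* they were 611, 261 and 209 against 760, 180 and 208 CPM. The genotypes overlapped in all 4 labels. The part of granule transcripts in these 4 differences was not tested.

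The other genes had 5 more unadjusted p-values under 0.05 outside PCs, none of which passed the adjusted threshold. In granule neurons, the label with the most UMIs in all, the 10 genes had a median absolute log2 fold change of 0.14, against 0.13 over all 18267 genes tested there. *Pde10a* in granule neurons was at 1200, 1497 and 3099 CPM in the SCA1 mice and 960, 2222 and 3431 CPM in the WT mice, which overlap throughout (log2 fold change -0.09, SE 0.40). *Pde4b* in OL likewise overlapped (-0.04, SE 0.39), as did *Pde7b* (-0.20, SE 0.31) and *Pde8b* (-0.16, SE 0.28) in BG. *Pde7b* in *Pvalb-Chrm2* nuclei was at 91.6, 171 and 201 CPM in the SCA1 mice and 51.7, 83.1 and 138 CPM in the WT mice. The groups overlapped, the SCA1 mouse was higher in all 3 numbers, and the log2 fold change was 0.74 (SE 0.24, with 0.81 and 0.79 within the ranges). In *Lgi2* nuclei *Pde7b* had the opposite sign (-0.96, SE 0.39, with -1.37 and -0.46 within the ranges and -1.37 to -0.55 over the alternatives). *Pde5a* was lower in OL (7.49 ± 3.69 against 16.1 ± 12.7 CPM, log2 fold change -1.15, SE 0.40, with -1.30 and -0.55 within the ranges and -1.29 to -0.07 over the alternatives) and granule neurons (7.35 ± 5.11 against 12.5 ± 8.39 CPM, -0.77, SE 0.28, with -0.74 and -0.71 within the ranges and -1.09 to -0.53 over the alternatives), and *Pde1a* was higher in granule neurons (4.23 ± 0.345 against 2.32 ± 2.25 CPM, 1.16, SE 0.46, with -0.10 and 1.33 within the ranges and 0.33 to 2.00 over the alternatives), all with overlapping groups. The PC marker sums moved with *Pde5a*, at 1067, 677 and 287 CPM in OL of the SCA1 mice against 2065, 750 and 578 CPM in the WT mice, and at 1091, 778 and 381 CPM against 2017, 876 and 716 CPM in granule neurons, lower in the SCA1 mouse of each number. Since *Pde5a* was below the lowest PC marker share in both labels, these values are not taken as expression there, and the part of PC transcripts was not tested. *Pde4d* in *Dcn-Nnat* nuclei had all SCA1 mice below the WT mice, at 207, 193 and 137 CPM against 261, 207 and 207 CPM (log2 fold change -0.34, SE 0.28), at a level below the share set by *Gabra6*. These groups were apart only on the TMM scale and overlapped when CPM was taken over all UMIs.

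An interaction model with a term for mouse asked whether a label's SCA1 effect differed from the granule neuron effect. Genes were filtered over both labels together, so the 120 combinations of gene and label include 17 that failed the filter on low counts of the label alone. Of the 120, 0 were called and 9 had an unadjusted p under 0.05, where 0.00364% of all genes tested in the 12 labels were called and 2.28% had an unadjusted p under 0.05 (edgeR). In PCs the lowest p was that of *Pde1a* (-5.17 on the log2 scale, SE 1.14, adjusted p = 0.518 in edgeR), one of the 17, with 30 of its 32 UMIs in WT mouse 1. The difference from granule neurons was -1.23 on the log2 scale for *Pde9a* (SE 0.27, adjusted p = 0.518) and -0.94 for *Pde10a* (SE 0.23, adjusted p = 0.582), and 0.53 for *Pde1c* (SE 0.27, adjusted p of 1). The differences of *Pde9a* and *Pde10a* between genotypes are therefore not shown to be particular to PCs.

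The rest of the pathway was described with a list of 71 genes, the cyclases, G proteins, kinases, anchors, targets and other phosphodiesterases. In the 13 labels, 30 to 67 of them were tested and 0 were called in either direction. In PCs, 47 were tested and 4 had an unadjusted p under 0.05, against 6.85% of all genes. The SCA1 mice were all above the WT mice for 4 of the 47 genes and all below for 4, against 5.08% and 5.04% of all genes tested in PCs, and the median log2 fold change was -0.08 against 0.02 over all genes. *Npr1*, a receptor that makes cGMP when it binds natriuretic peptides, was at 5.58 ± 3.16 CPM in PCs of the SCA1 mice and 22.3 ± 1.39 CPM in those of the WT mice (log2 fold change -1.95, SE 0.40, adjusted p = 0.14 in edgeR). *Ppp1r1b*, which encodes the phosphatase inhibitor DARPP-32, was at 11.6 ± 6.56 against 28.1 ± 5.08 CPM (-1.31, SE 0.36). *Ppp1r17*, a substrate of cGMP-dependent kinase that is also one of the PC markers, was at 226 ± 4.09 against 317 ± 69.7 CPM (-0.48, SE 0.21). *Prkg1*, the kinase itself, which the rule did not name, was at 9985 ± 1964 against 12193 ± 4080 CPM (-0.28, SE 0.38). Outside PCs the rule named *Adcy8*, an adenylyl cyclase activated by calcium, in BG (255 ± 51.1 against 155 ± 31.5 CPM, 0.71, SE 0.23) and the anchor *Akap13* in granule neurons (18.2 ± 4.19 against 11.7 ± 1.95 CPM, 0.63, SE 0.22).

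The genes whose log2 mean levels over the 13 labels were most like those of a phosphodiesterase were named as a description, among 11203 genes that reached 20 CPM in at least 1 label. For *Pde1c* they were *Calm2* (r = 0.90), one of the calmodulin genes, and *Grb2* (0.84). For *Pde1a* they were *Lmx1b* (0.95) and another phosphodiesterase, *Pde11a* (0.95), which reached 77.6 CPM in *Dcn-Nnat*. For *Pde10a* they were *Epb41* (0.97) and *Fgf9* (0.96), for *Pde9a* *Gm50138* (0.99) and *Gm15336* (0.90), and for *Pde5a* the antisense gene *4930447N08Rik* (0.96) and *Birc2* (0.86). *Pde4a* was most like *Armc6* (0.96) and *Snap47* (0.96), *Pde4b* like *Clasp2* (0.92) and *Txndc16* (0.92), and *Pde4d* like *Gm48677* (0.91) and *Hivep3* (0.91). *Pde7b* was most like *Mindy4* (0.93) and *Gpc6* (0.92), and *Pde8b* like *Plekha7* (0.91) and *Tmem44* (0.90). The 13 labels share libraries and depth, and no p is given.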

How the data were processed

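The authors deposited, for each mouse, raw UMI counts of every gene in every nucleus (whole numbers, not normalized), along with each nucleus's SingleR label. Per the methods and labels, reads were aligned with Cell Ranger to an mm10 genome extended by human *ATXN1*, introns were counted, and debris was removed with DIEM at a minimum of 1000 UMIs per nucleus, or 3000 for libraries sequenced in the first run. The submitters' processing notes name Cell Ranger 4.0.0, 5.0.1 and 6.0.1, R 4.1.0 and Seurat 4.0.4. The higher minimum leaves deeper nuclei in those libraries. Which mice they were was inferred from the library numbers. No doublet caller was run, and cell types come from the authors' labels alone.

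Counts were summed per mouse and label. The test was the quasi-likelihood test of edgeR 4.0.16 in R 4.3.3, with TMM factors, filterByExpr (minimum count 10, minimum total 15) and the terms genotype and library number range. Adjusted p-values are Benjamini-Hochberg values over all genes tested in a label, called at 0.05. The test itself gives no SE, so each SE printed is the absolute log2 fold change divided by the square root of the F statistic. Levels between labels are CPM over all UMIs of a sum, with 1 added before log2, and levels between genotypes use TMM factors. Gene spans are from GENCODE's annotation of GRCm38, matched by symbol. Alternatives used DESeq2 1.42.0, limma 3.58.1, scran 1.30.0 and scater 1.30.1. Tables were handled in Python 3.11.15 (pandas 2.3.3, numpy 2.4.6), exact tests used scipy 1.17.1 and plots matplotlib 3.10.9. The fits were tested on simulated data first. Intervals given for pooled counts are exact Clopper-Pearson 95% intervals that cover counting error only.

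The genes and lists were chosen with earlier results of these data known. All 10 genes are described in every label tested, and a pathway gene is named where it was called, or where in PCs, BG, VA, OL or granule neurons it had an unadjusted p under 0.05 without overlap of the genotypes. For each of the 10, the 2 genes of highest Pearson r over the labels are named. The sample numbers were taken to pair the mice where the deviations from the genotype means correlated above 0.1 in all 3 same-numbered pairs. In PCs these correlations were 0.76, 0.14 and 0.62. The condition failed in BG, *Dcn-Nnat* and *Slc17a6-Sln*, with 0.06, 0.04 and 0.05 in the second pair. Nothing says that mice of one number shared a litter, and the mice numbered 1 also share the lower library number range. Protein sequences were not used here.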

Additional observations from a re-analysis of the deposited data

Results flagged for a closer look

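A label outside the comparisons, which the authors' reference names a *Kcnj8* mural cell, stood out for a *Pde8b* level above that of any label compared, and for a pooled *Pde7b* level above the highest mean of those labels. It held 20 nuclei and 90963 UMIs in 5 of the 6 mice. *Pde8b* had 361 UMIs there, 3969 CPM over the pooled nuclei (exact 95% interval 3570 to 4399), against 495 CPM in BG. It was at 1343, 1825 and 6110 CPM in SCA1 mice 1, 2 and 3 and at 1573 and 4637 CPM in WT mice 2 and 3, above its BG level in each of these 5 mice. *Pde7b* had 92 UMIs, 1011 CPM (815 to 1240), against a mean of 785 CPM in BG over the 6 mice. By mouse it was at 192, 624 and 1317 CPM in SCA1 mice 1, 2 and 3 and at 847 and 1193 CPM in WT mice 2 and 3, where BG of the same mice were at 561, 638, 994, 829 and 1193 CPM, so that *Pde7b* was not consistently above BG. SCA1 mouse 3 and WT mouse 3 gave 36 and 35 of its 92 UMIs. The mural genes *Abcc9*, *Rgs5* and *Pdgfrb* were at 1693, 1539 and 1121 CPM in these nuclei, the fibroblast genes *Dcn*, *Lum* and *Slc6a13* had 0 UMIs and *Col1a2* 14 (154 CPM), and the endothelial gene *Flt1* had 38 UMIs (418 CPM). No comparison between genotypes was made in this label.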

How the results depend on the processing

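Of the 10 genes, 0 were called in PCs by edgeR's filtered fit with library range, but 2 were called with DESeq2 (*Pde9a*, *Pde10a*), and 3 each with no filter on low counts, with the replicate block and with limma-trend on nuclei (*Pde9a*, *Pde10a* and *Pde1c*). In OL, 1 was called with limma-trend on nuclei (*Pde5a*). The replicate block changed no other call of these genes. Leaving out single mice gave 0 calls in every label, whereas for the difference from granule neurons it gave between 0 and 1 in *Dcn-Nnat* and *Slc17a6-Nrgn* (*Pde1a*) and in *Pvalb-Cadm1* and *Pvalb-Rab3b* (*Pde1c*), in each case without WT mouse 1. How many of all genes were called in those fits was not counted, so these calls have no background beside them and nothing is drawn from them. All genes called in PCs numbered 0 in that fit and 65 with DESeq2, 223 without the filter, 184 with the block and 407 on nuclei, and at most 6 without a mouse. On nuclei, 348 genes were called in BG, 140 in VA and 152 in OL, against 0, 0 and 1 in edgeR's fit on sums. The causes of these differences between tests were not tested. Among the log2 fold changes recomputed, those of the 9 genes tested in PCs and those at an unadjusted p under 0.05 elsewhere, direction turned for 2, both in PCs: *Pde8b* was at 0.45 on the log2 scale when nuclei also had to carry the main label of their cluster, and without single mice it ranged from -0.88 to 0.38, and *Pde4b* from -1.23 to 0.12. Levels in the leading labels moved by less than 1 SD under each alternative. Leaving out 1 of 6 mice cannot move a mean that far, so only the other alternatives test this. Nuclei whose label matched their cluster could not be fitted in *Dcn-Nnat*, *Lgi2*, *Pvalb-Chrm2*, *Pvalb-Rab3b*, *Slc17a6-Nrgn* and *Slc17a6-Sln*. In each of these labels a mouse had none, and in *Pvalb-Rab3b* no mouse had any. Values of *Pde1a*, *Pde4a* and *Pde8b* in PCs rest on 32, 63 and 84 UMIs in all.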
